A study of Homo sapiens with 21 samples.

Results

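The nuclear-encoded subunits of the mitochondrial respiratory chain and ATP synthase were followed through 21 arrays of differentiated SH-SY5Y cells. The members were the genes whose current symbol has the form of a subunit name of complexes I to V. The forms were NDUFA, NDUFB, NDUFC, NDUFS and NDUFV, SDHA to SDHD, UQCR and CYC1, COX5 to COX8, and ATP5F, ATP5M and ATP5P. COX4I1 and COX4I2 do not have these forms and are given apart. A member also had to have a probe set annotated to that gene alone. This gave 79 of 18132 genes, namely 35 of complex I, 3 of complex II, 9 of complex III, 14 of complex IV and 18 of complex V. Each gene was read by the probe set with its highest mean over all arrays. Of the 79 members, 48 had more than 1 probe set, and the members had 181 probe sets in all. No filter on low values was applied, so that every member entered every comparison.

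SH-SY5Y is a human neuroblastoma cell line that is widely used as a model of neurons. The wild-type cells (WT) and a line described as mutated at APP-V717F (APP), a change in the amyloid precursor protein that is known from familial Alzheimer's disease, were first differentiated for 3 to 4 days in supplemented neurobasal medium, in which retinoic acid (10 µM) and BDNF (50 ng/mL) were the agents. The medium was then renewed and vehicle (0.1% DMSO) or a compound was present for 72 h. Each of the 7 groups held 3 arrays, 4 groups of WT cells and 3 of APP cells (WT_DMSO, WT_AG494, WT_NOSCA, WT_PALBO, APP_DMSO, APP_AG494 and APP_NOSCA). AG494 is a tyrphostin inhibitor of the EGF receptor tyrosine kinase, whereas NOSCA and PALBO are named here as in the labels. Doses are not given in the labels, so that the compounds are compared at unknown doses, and a PALBO group of the APP line is not analysed here. There was 1 mutated line, and the labels do not say how the mutation was introduced or whether the line is a clone. A difference between genotypes and a difference between these lines therefore cannot be told apart. The design describes independent experiments without assigning arrays to them, and p-values measure the spread between the arrays of a group.

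The respiratory chain passes electrons from NADH (complex I) and succinate (complex II) through ubiquinone and complex III to cytochrome c and complex IV, and the proton gradient this builds drives the ATP synthase, complex V. Most subunits are encoded in the nucleus, and their genes are known targets of the transcription factors NRF1 and GABP, of YY1, and of estrogen-related receptors with their coactivator PGC-1alpha, the product of PPARGC1A. Neurons rely on oxidative phosphorylation for ATP, and altered mitochondrial respiration is a recurring subject in research on Alzheimer's disease.

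The arrays resembled each other closely, with correlations between 0.984 and 0.999 and array medians between 7.88 and 8.03 on the log2 scale. The cells had the markers of noradrenergic neuroblastoma. PHOX2A, HAND2, ISL1 and DBH lay between 12.03 and 13.35 in all arrays, CHGA between 12.07 and 13.02, GATA3 between 10.50 and 11.11, DDC between 9.41 and 11.42 and TH between 7.04 and 9.61. Of the immune cell markers PTPRC lay between 4.79 and 5.18, CD3E between 5.44 and 5.73, CD14 between 5.84 and 6.40, AIF1 between 5.80 and 6.37 and CD68 between 7.76 and 8.67. Of the glial markers AQP4 lay between 5.27 and 5.97, S100B between 5.98 and 8.36, SOX10 between 7.43 and 7.99 and GFAP between 8.15 and 8.77. Of the fibroblast markers COL1A2 stayed between 5.52 and 6.10, whereas DCN lay between 6.77 and 9.48, PDGFRB between 7.92 and 8.70, LUM between 8.84 and 9.87, COL1A1 between 8.98 and 10.44 and THY1 between 9.51 and 10.81. Some of these markers moved with the groups. Between the lines under vehicle CHGA (0.59) and DCN (1.55) were higher and DBH (-0.31), S100B (-1.01), COL1A1 (-1.19) and THY1 (-0.55) lower in APP_DMSO. Under PALBO CHGA (0.49), ISL1 (0.43) and S100B (0.95) were higher and COL1A1 (-0.88) lower, and CD68 (0.52) was higher under AG494 in APP cells. Each of these log2 fold changes was called in limma, and their part in the results was not tested. The mutated gene gave a check of the labels only in part, since a point mutation need not alter the amount of transcript. APP was at 12.57 ± 0.07 (SD, n = 3) in WT_DMSO and at 12.29 ± 0.06 in APP_DMSO, which was lower by limma (log2 fold change -0.28, adjusted p = 0.041). Between the lines it was not called under AG494 (-0.15, adjusted p = 0.36) or under NOSCA (-0.044, adjusted p = 0.85). The sample numbers in the titles fall into 3 runs with 1 array of every group in each, and arrays of 1 run deviated together. A second fit therefore had the run as a block, and its values are given where they change a call. The comparisons of WT_DMSO with APP_DMSO and with the 3 treated WT groups share the WT_DMSO arrays.

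Across the 7 groups the subunits moved very little. An array of bulk cells cannot tell fewer cells that express a gene from less RNA per cell. The group means of a member spanned a median of 0.12 log2 units, from 0.054 for COX7A2 to 0.66 for COX6B2. This span was below 0.2 for 65 of the 79 members and below 0.3 for 76. The 3 others were COX6B2, COX5A (0.45) and COX7A1 (0.33). The spread of the arrays within their groups was also small. The residual SD had a median of 0.084 over the members and 0.13 over all genes, and of 0.10 over the 6263 genes in the same range of mean values as the 73 bright members.

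**Figure D1:**
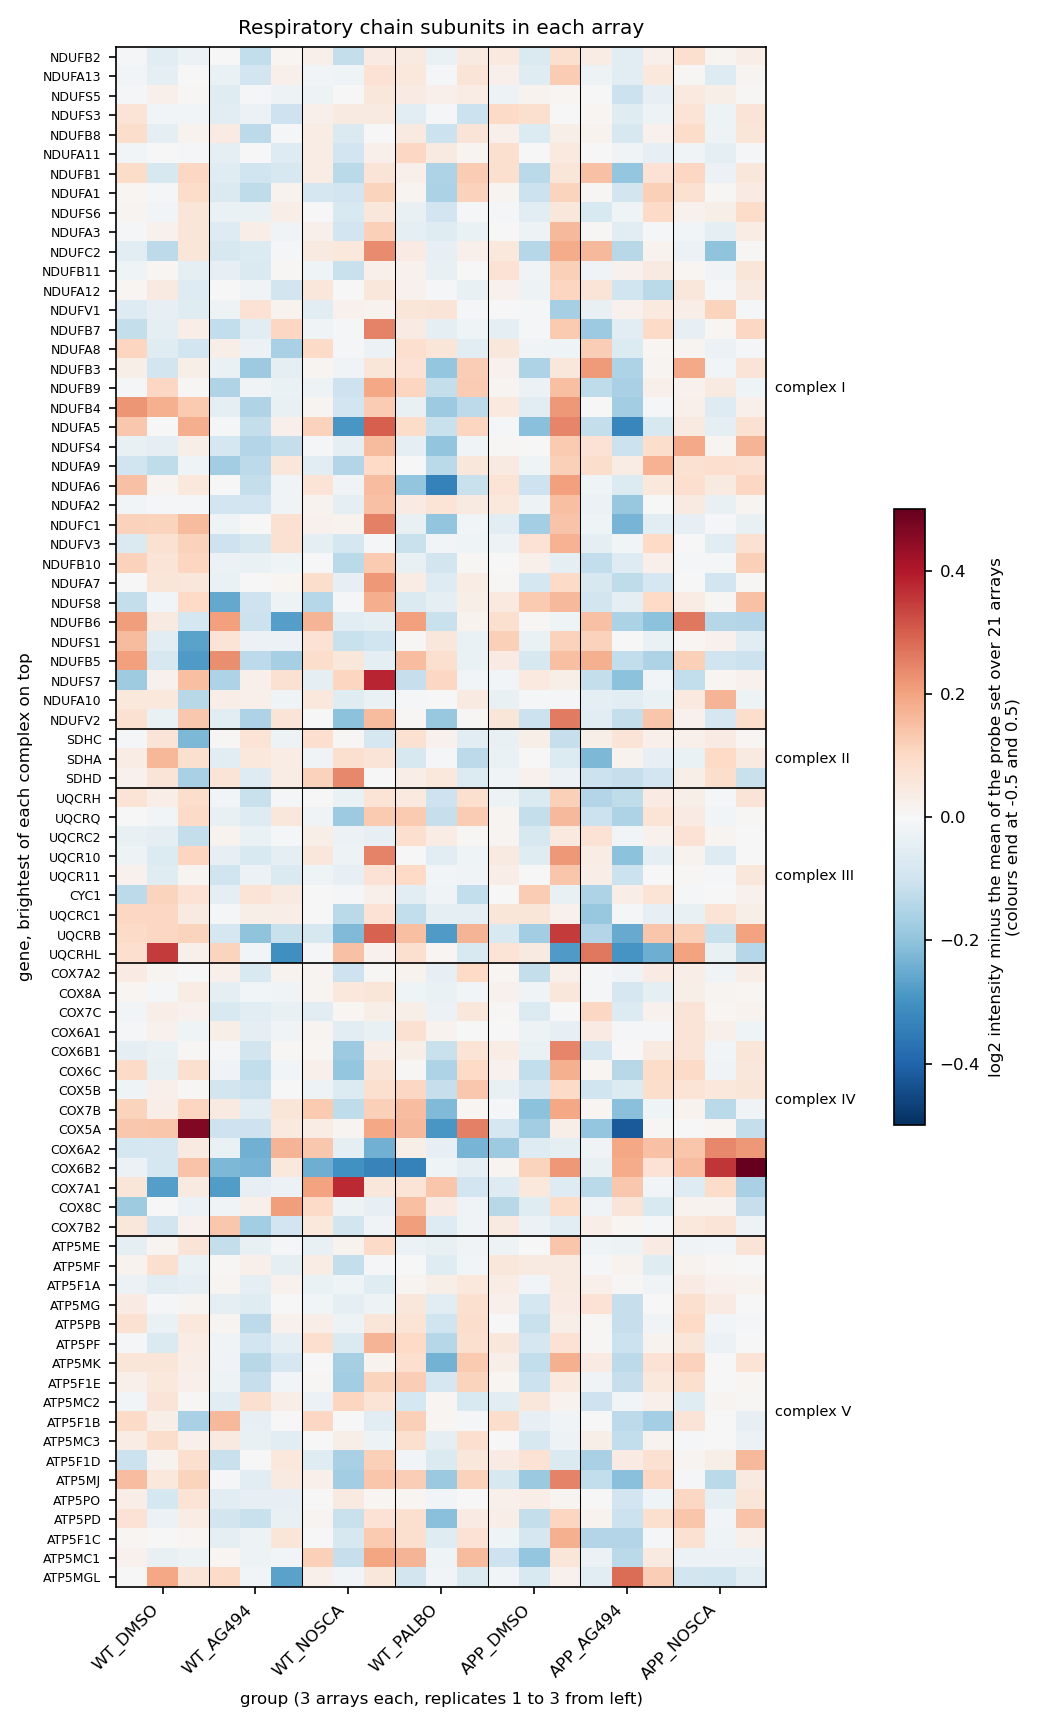
Log2 intensity of the 79 subunits (vertical axis, by complex) in the 21 arrays (horizontal axis, 3 arrays in each of 7 groups), shown as the difference from the mean of the probe set over all arrays, with colours ending at -0.5 and 0.5. Most cells are pale in every group, and darker ones are scattered, as in COX5A, COX6B2, NDUFA5 and UQCRB, with bluer columns for the middle array of several groups.

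In complex I, the NADH dehydrogenase, the brightest probe set was that of NDUFB2 with a mean of 13.22 and the dimmest that of NDUFV2 with 10.63. These levels depend on the probes and are not compared as amounts of RNA. In complex II, which is also an enzyme of the citric acid cycle, SDHC, one of its membrane anchors, had a mean of 12.20 and SDHD, the other anchor, 10.03. In complex III UQCRH, the hinge protein, had a mean of 13.15, and its close paralogue UQCRHL, whose probe set may share transcripts with it, 9.92. In complex V ATP5ME, a small membrane subunit, had the highest mean of all members, 13.55.

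Tissue-restricted isoforms were the dim members. In complex IV, cytochrome c oxidase, the isoforms known as ubiquitous had means of 13.02 (COX6A1), 13.02 (COX6B1), 13.47 (COX7A2), 12.08 (COX7B) and 13.31 (COX8A). The probe sets of their heart- and muscle-type or testis-type counterparts had means of 7.32 (COX6A2), 6.76 (COX6B2), 5.80 (COX7A1), 4.79 (COX7B2) and 5.10 (COX8C), below the median of every array. ATP5MGL, a retrocopy-like relative of the ATP synthase subunit g gene, had a mean of 6.19. These 6 were the only members below that median, and the other 73 had means from 9.74 upwards. The 3 genes for subunit c of the ATP synthase rotor, ATP5MC1, ATP5MC2 and ATP5MC3, had means of 11.33, 12.74 and 12.31 and group means within 0.18, 0.10 and 0.085 of each other, respectively.

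The first comparison asked whether the APP line differed from WT under vehicle. No subunit of any complex passed the test, although the lines differed widely elsewhere. Of all genes, 1677 were called at an adjusted p under 0.05 (limma, Benjamini-Hochberg), or 9.25%, against 0 of the 79 members. At an unadjusted p under 0.05 there was 1 member, COX5A, where all genes gave 20.3%. The median log2 fold change of the members was -0.0020 and that of all genes 0.022, with 40 of 79 members, or 50.6%, below 0 against 43.9% of all genes. Among the genes in the same range of mean values as the bright members, which were not matched to them one by one, 9.53% were called. The 95% confidence interval of the difference lay within 1.5-fold in either direction for 78 of the 79 members, with a median distance of 0.16 from the estimate to its bound.

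COX5A, a nuclear-encoded matrix-side subunit of cytochrome c oxidase, had the largest difference between the lines among the members. Its values were 9.87, 9.87 and 10.20 in WT_DMSO and 9.65, 9.56 and 9.77 in APP_DMSO. All 3 APP_DMSO arrays lay below all 3 WT_DMSO arrays, and the third WT_DMSO array stood above the other two. The log2 fold change was -0.32 ± 0.13 (SE) with an adjusted p of 0.15 in limma. Its 95% interval ran from -0.59 to -0.051, and without the third WT_DMSO array the value was -0.21. With the run as a block the adjusted p was 0.027, and COX5A was the 1 member called lower, where 7.14% of all genes were called lower. In the other APP groups it lay between 9.31 and 9.74, and in WT_NOSCA between 9.75 and 9.93. The values of 9.90, 9.45 and 9.99 in WT_PALBO and of 9.63, 9.63 and 9.78 in WT_AG494 overlapped those of the APP groups.

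The next lowest p-values belonged to SDHA, the flavoprotein that oxidises succinate (-0.13), to the complex I accessory subunits NDUFC1 (-0.15) and NDUFB10 (-0.10), and to NDUFA9 (0.13), an accessory subunit near the ubiquinone site. SDHA was at 11.09, 11.22 and 11.14 in WT_DMSO and at 11.02, 11.06 and 10.99 in APP_DMSO. NDUFA9 was at 11.55, 11.52 and 11.62 in WT_DMSO and at 11.69, 11.62 and 11.76 in APP_DMSO. The groups of SDHA did not overlap and those of NDUFA9 met at 11.62, and none of the 4 genes passed the test. The groups did not overlap for 4 members that were lower in APP_DMSO, or 5.06%, against 9.18% of all genes. They were COX5A, SDHA, NDUFB10 and ATP5MC3. The 1 member that was higher without overlap, or 1.27% against 13% of all genes, was ATP5F1A, the alpha subunit of the ATP synthase, at 13.22, 13.20 and 13.21 in WT_DMSO and at 13.29, 13.24 and 13.30 in APP_DMSO.

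**Figure D2:**
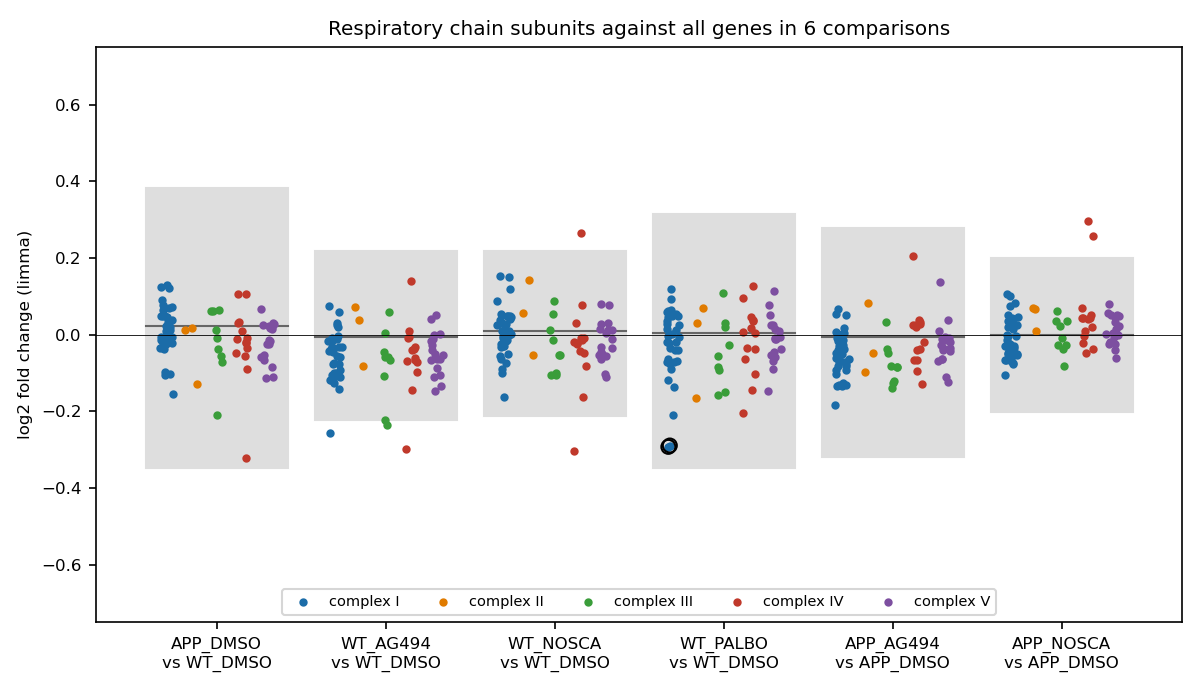
Log2 fold change from limma (vertical axis) of the 79 subunits, coloured by complex, in 6 comparisons. Grey boxes span the 5th to 95th percentile of all 18132 genes, the grey line is the median of all genes, and black rings mark subunits at an adjusted p under 0.05. The only ringed points are NDUFB4 and NDUFA6 under PALBO, and the members under AG494 sit mostly below 0.

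AG494 was given to both lines. In WT cells no member passed the test, where 46 genes, or 0.254%, were called, and 2 members were below an unadjusted p of 0.05. In APP cells 0 members passed, with or without the block, where 861 genes, or 4.75%, were called, and none was below an unadjusted p of 0.05. More members were negative than positive in both lines, and the mean of the cytosolic ribosomal proteins was lower as well (values by run below). In WT cells 65 of 79 had a negative log2 fold change, or 82.3%, against 52% of all genes, and their median was -0.052 against -0.0053 for all genes. In APP cells 60 of 79 were negative, or 75.9%, against 51.9% of all genes, and their median was -0.042 against -0.0060. Genes in the same range of mean values as the 73 bright members were closer to the members in APP than in WT cells. In WT cells the bright members had a median of -0.052 and these genes one of -0.00013, with 50.1% negative. In APP cells the bright members had a median of -0.047 and these genes one of -0.032, with 60.4% negative. Without each array in turn the median of the 79 members ran from -0.058 to -0.048 in WT cells and from -0.066 to -0.0047 in APP cells. The groups did not overlap, with WT_AG494 the lower, for 18 members, or 22.8%, against 5.76% of all genes, and with WT_AG494 the higher for 2 members, or 2.53%, against 5.53%. In APP cells 6 members were lower without overlap, or 7.59% against 10.9% of all genes, and 1 was higher, or 1.27% against 9.06%. Such counts also depend on the spread of the arrays, which differed between the lines. The mean of the 79 members per array, given below, had an SD of 0.0093 in WT_DMSO and of 0.061 in APP_DMSO. Under AG494 its SD was 0.024 in WT and 0.046 in APP cells.

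The negative values under AG494 were spread over the complexes. In WT cells 30 of 35 members of complex I, 7 of 9 of complex III, 12 of 14 of complex IV and 15 of 18 of complex V were negative, but 1 of 3 of complex II. The medians were -0.046, -0.060, -0.050 and -0.051 for complexes I, III, IV and V and 0.038 for complex II. In APP cells complex IV was divided evenly, with 7 of 14 negative, while 28 of 35 members of complex I, 8 of 9 of complex III and 15 of 18 of complex V were negative. The sign of the members' median in APP cells depended on the scaling. With each array centred on its median it was 0.0081 with 35 negative, and the median of all genes was 0.044. The difference of the members' median from that of all genes was -0.036 before and after centring. In WT cells the members' median was -0.076 after centring, with 69 negative, and that of all genes -0.029.

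NDUFB4, an accessory subunit of the membrane arm of complex I, had the lowest p among the members in WT cells. Its values were 12.29, 12.25 and 12.20 in WT_DMSO and 12.02, 11.92 and 12.03 in WT_AG494. All 3 treated arrays lay below all 3 vehicle arrays. This was a log2 fold change of -0.26 ± 0.08 (SE) with an adjusted p of 0.25 in limma, and of 0.034 with the block. It was the 1 member called lower in WT_AG494 with the block, where 0.888% of all genes were called lower.

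In WT_AG494 COX5A was at 9.63, 9.63 and 9.78, a log2 fold change of -0.30 with an adjusted p of 0.55 in limma. NDUFB10 was at 11.42, 11.37 and 11.41 in WT_DMSO and between 11.27 and 11.28 in the 3 WT_AG494 arrays. The groups of both genes did not overlap, and neither passed the test. In APP cells the members with the lowest p were NDUFA2 (-0.13), COX6A2 (0.21), the complex III core protein UQCRC1 (-0.13), UQCR10 (-0.14) and NDUFB4 (-0.13), with adjusted p-values in limma from 0.36 to 0.49. The interaction of genotype and AG494 was called for 0 members, also with the block, and for 7 genes, or 0.0386%, and 1 member was below an unadjusted p of 0.05. The lowest p among the members was that of ATP5MGL, whose AG494 effect was higher by 0.29 in APP than in WT cells with an adjusted p of 0.62.

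No subunit passed the test under NOSCA in either line. In WT cells 0 members were called, with or without the block, where 3 genes, or 0.0165%, were called, and 2 members were below an unadjusted p of 0.05. In APP cells 0 members were called, where 0 genes (0%) were called, and 2 members and 5.29% of all genes were below an unadjusted p of 0.05. With the block, 5 genes and no member were called in APP cells. The medians of the members were -0.0094 in WT and 0.0087 in APP cells, and the 95% intervals of all 79 members lay within 1.5-fold in both lines. The groups did not overlap for 4 members that were lower in WT_NOSCA, or 5.06% against 4.31% of all genes, and for 0 that were higher, against 5.41%. In APP cells they did not overlap for 2 members in each direction, or 2.53%, against 5.39% higher and 5.37% lower of all genes. After centring the arrays on their medians 15 of 79 members were negative in APP cells, against 37 before, and all genes shifted by as much.

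COX6B2, the testis-type isoform of subunit VIb of cytochrome c oxidase, was the member with the lowest p under NOSCA in WT cells and the only one called between the lines under NOSCA. Its values were 6.51, 6.46 and 6.42 in WT_NOSCA and 6.91, 7.12 and 7.36 in APP_NOSCA. All APP_NOSCA arrays lay above all WT_NOSCA arrays, and the APP_NOSCA arrays were the more spread. The difference was 0.66 ± 0.11 (SE) with an adjusted p of 0.00076 in limma. This comparison called 1306 genes, or 7.2%, of which 645, or 3.56% of all genes, were higher, and 1 of the 79 members. Without each array in turn it ranged from 0.55 to 0.77, with each adjusted p under 0.05.

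Under vehicle COX6B2 was at 6.73, 6.67 and 6.90 in WT and at 6.77, 6.87 and 6.97 in APP cells, where the groups overlapped. NOSCA went with a log2 fold change of -0.30 in WT cells (adjusted p = 0.60 in limma) and of 0.26 in APP cells (adjusted p = 0.92). The interaction was 0.56 with an adjusted p of 0.88, so that the effect of NOSCA was not shown to differ between the lines. No member had a call in this interaction, where 0 genes (0%) were called, and 1 member and 4.94% of all genes were below an unadjusted p of 0.05. This is a dim gene, and its 3 probe sets differed. Between APP_NOSCA and WT_NOSCA the other probe sets gave 0.18 and 0.18, neither called, and the mean of all 3 gave 0.34 with an adjusted p of 0.034.

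The heart- and muscle-type isoforms COX6A2 and COX7A1 had no call. COX7A1 was at 5.86, 5.53 and 5.85 in WT_DMSO and at 6.00, 6.18 and 5.86 in WT_NOSCA, which met at 5.86 (log2 fold change 0.27, adjusted p = 0.65 in limma). COX6A2 was at 7.14, 7.26 and 7.27 in APP_DMSO and at 7.46, 7.56 and 7.53 in APP_NOSCA. These groups did not overlap, and the log2 fold change of 0.30 had an adjusted p of 0.81 in limma. NDUFV1, the subunit of complex I that binds NADH, differed by 0.10 between APP_NOSCA and APP_DMSO (adjusted p = 1.0). SDHD was 0.14 higher and NDUFB4 0.16 lower in WT_NOSCA than in WT_DMSO, with adjusted p-values in limma of 0.79 and 0.74.

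Under PALBO, given to WT cells, a pair of complex I accessory subunits fell, NDUFB4 and NDUFA6. This compound changed 1265 genes, or 6.98%, of which 701 were lower, or 3.87%, against 2 of the 79 members, or 2.53%, a smaller share than that of all genes. Neither passed when only the compared groups were fitted. At an unadjusted p under 0.05 there were 5 members and 18.2% of all genes. The median of the members was -0.0078 against 0.0037 for all genes. Of the genes in the same range of mean values as the bright members, 9.55% were called. The groups did not overlap for 9 members that were lower and 6 that were higher, or 11.4% and 7.59%, against 10.4% and 10.7% of all genes.

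NDUFA6, a subunit of the peripheral arm of complex I at which the acyl carrier protein docks, was at 11.79, 11.66 and 11.69 in WT_DMSO and at 11.44, 11.30 and 11.53 in WT_PALBO. All 3 treated arrays lay below all 3 vehicle arrays. The difference of -0.29 ± 0.08 (SE) had an adjusted p of 0.034 in limma, and of 0.0017 with the block. It was 0.16 with only the compared groups and 0.052 with array weights. NDUFA6 has 1 probe set on the array.

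NDUFB4 was at 12.29, 12.25 and 12.20 in WT_DMSO and at 12.03, 11.89 and 11.94 in WT_PALBO. The groups again did not overlap. Its log2 fold change was -0.29 ± 0.08 with an adjusted p of 0.029 in limma, of 0.11 with only the compared groups and of 0.033 with array weights. The bright probe sets of NDUFB4 held identical values and count as 1 measurement, and its dim probe set, with a mean of 5.43, gave -0.26. The call of NDUFB4 was lost without WT_DMSO array 1 or 2 or without WT_PALBO array 2 or 3, and that of NDUFA6 without any array of either group but WT_PALBO array 3. The count of called members was then 0 or 1, and the log2 fold changes ranged from -0.34 to -0.23 for NDUFA6 and from -0.33 to -0.26 for NDUFB4.

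NDUFA6 was 0.28 lower in WT_PALBO than in WT_NOSCA, which passed the test with the block (adjusted p = 0.0033 in limma, where 4.06% of all genes were called lower) and not without it (adjusted p = 0.065). No member was called between WT_PALBO and WT_AG494, where 3.25% of all genes were called, nor between WT_PALBO and WT_NOSCA without the block, where 3.23% were called. In these comparisons 1 and 2 members were below an unadjusted p of 0.05, against 12.9% and 11.6% of all genes. NDUFB4 differed by -0.037 between WT_PALBO and WT_AG494 and by -0.13 between WT_PALBO and WT_NOSCA (adjusted p = 0.97 and 0.64 in limma). NDUFA6 differed by -0.17 between WT_PALBO and WT_AG494 (adjusted p = 0.37 in limma). The 3 next members under PALBO against vehicle were NDUFC1 (-0.21), UQCRC1 (-0.16) and SDHA (-0.17), none of which passed. NDUFC1 was at 11.64, 11.64 and 11.69 in WT_DMSO and at 11.49, 11.33 and 11.51 in WT_PALBO. SDHA was at 10.98, 11.05 and 10.93 in WT_PALBO, below its vehicle values given above, and the groups of both genes did not overlap. With the block NDUFC1 (adjusted p = 0.039) and SDHA (adjusted p = 0.038) were called as well, which made 4 lower and 0 higher members, where 7.35% of all genes were called lower.

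**Figure D3:**
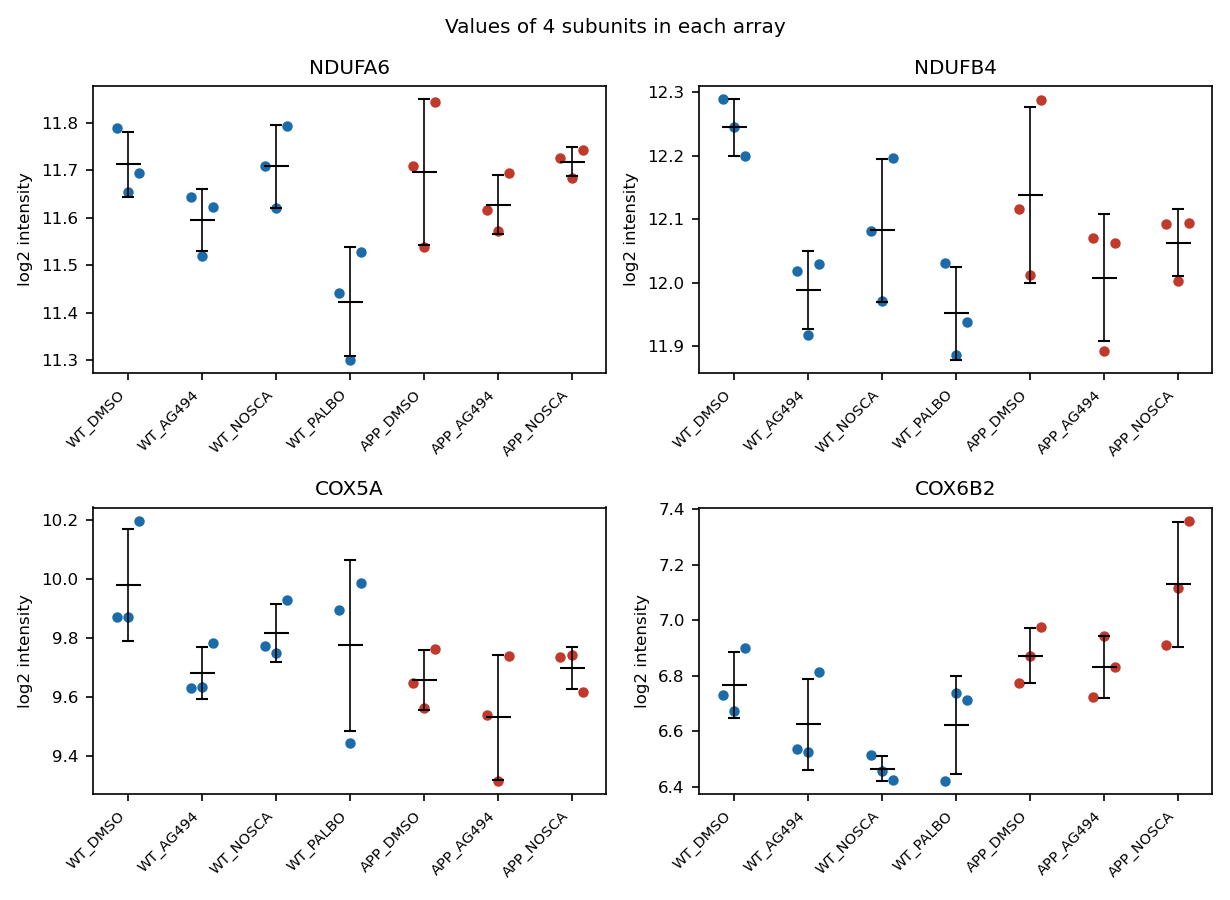
Log2 intensity (vertical axis) of NDUFA6, NDUFB4, COX5A and COX6B2 in each array, by group (horizontal axis; WT blue, APP red), with the mean and SD of 3 arrays. The mean of NDUFA6 is lowest in WT_PALBO, that of NDUFB4 highest in WT_DMSO, and that of COX6B2 highest in APP_NOSCA; the vertical axes are cut and differ between panels.

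The members called in at least 1 fit are shown here by the 150 bases before their start of transcription, to show which of them hold the letters of NRF1 and which do not. The sequences are RefSeq's for GRCh38.p14 and run 5′ to 3′ on the strand of the gene, with capitals for an exact match to the NRF1 letters GCGCANGCG on either strand.
NDUFA6, minus strand, chr22:42090773-42090922: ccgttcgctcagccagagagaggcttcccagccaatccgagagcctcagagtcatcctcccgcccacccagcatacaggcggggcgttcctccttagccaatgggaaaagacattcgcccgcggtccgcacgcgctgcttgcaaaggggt
NDUFB4, plus strand, chr3:120596186-120596335: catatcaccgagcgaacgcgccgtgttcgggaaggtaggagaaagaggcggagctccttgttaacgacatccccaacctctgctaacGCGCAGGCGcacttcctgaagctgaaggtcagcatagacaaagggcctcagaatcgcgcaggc
SDHA, plus strand, chr5:218170-218319: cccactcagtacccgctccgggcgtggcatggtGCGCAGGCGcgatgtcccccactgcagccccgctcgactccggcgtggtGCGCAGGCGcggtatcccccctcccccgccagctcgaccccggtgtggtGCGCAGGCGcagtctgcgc
NDUFA9, plus strand, chr12:4648964-4649113: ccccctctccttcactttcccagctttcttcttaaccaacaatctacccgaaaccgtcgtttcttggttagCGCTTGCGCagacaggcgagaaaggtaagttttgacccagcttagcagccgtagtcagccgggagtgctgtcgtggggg
COX5A, minus strand, chr15:74938074-74938223: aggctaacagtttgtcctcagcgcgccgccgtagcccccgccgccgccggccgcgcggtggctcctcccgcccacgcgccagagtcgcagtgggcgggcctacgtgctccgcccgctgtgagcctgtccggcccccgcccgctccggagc
COX6B2, minus strand, chr19:55354720-55354869: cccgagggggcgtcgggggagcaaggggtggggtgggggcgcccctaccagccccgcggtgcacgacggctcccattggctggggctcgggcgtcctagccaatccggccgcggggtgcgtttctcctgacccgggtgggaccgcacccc

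SDHA has 3 such matches in the bases shown, at -117, -68 and -19 from the start, NDUFB4 has 1 at -63 and NDUFA9 has 1 at -79, where the letters lie on the other strand. NDUFA6, COX5A and COX6B2 have none in these bases. NDUFC1, the remaining member called with the block, has several annotated starts and is not shown. A match is a run of letters and not a measured binding site.

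Promoter windows of 250 bases before to 50 after a start were at hand for 64 of the 79 members and for 14425 genes in all. On either strand the NRF1 letters were in the windows of 22 members (34.4%, against 13.0% of all genes with a window). The ETS letters CCGGAAGT were in those of 12 members (18.8% against 7.2%), and the YY1 letters AAGATGGCG in those of 8 (12.5% against 3.37%). TCAAGGTCA, the letters of an estrogen-related receptor site, were in the windows of 1 member (1.56% against 0.319%). At least 1 of the 4 was present for 35 members, or 54.7%, against 21.5% of all genes with a window. Matches of different letters may overlap, and each was counted. Genes with several starts had several windows and so more chances of a match.

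Between the lines under AG494 no member was called, where 1635 genes, or 9.02%, were called, and 1 member was below an unadjusted p of 0.05. NDUFA9 was at 11.47, 11.51 and 11.70 in WT_AG494 and at 11.73, 11.68 and 11.82 in APP_AG494. The groups overlapped at 11.68 and 11.70, and within each run of sample numbers the APP array was the higher. The difference of 0.18 ± 0.08 (SE) had an adjusted p of 0.19 in limma, and of 0.026 with the block, where 8.45% of all genes were called higher. NDUFS4, an accessory subunit of the part of complex I that oxidises NADH, was 0.13 higher and ATP5F1B, the catalytic beta subunit of the ATP synthase, 0.14 lower in APP_AG494, and neither passed either fit.

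The runs also differed in the subunits as a whole. The member mean of an array, taken as the average over the 79 members of the difference from the mean of the gene, was lowest in the second run in all 7 groups. In the second run it lay between -0.078 and 0.0082 with a median of -0.051, in the first between -0.031 and 0.043 with a median of 0.017, and in the third between -0.015 and 0.075 with a median of 0.025. The group means of this value went from -0.036 ± 0.024 (SD, n = 3) in WT_AG494 to 0.024 ± 0.023 in APP_NOSCA, with -0.027 ± 0.046 in APP_AG494.

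Within the runs AG494 lay below DMSO each time. The differences of the member mean in WT cells were -0.054, -0.070 and -0.040 in runs 1, 2 and 3, while all genes gave -0.012, 0.0098 and -0.0071. In APP cells they were -0.026, -0.032 and -0.063, against 0.0040, 0.0048 and -0.036 for all genes. The genotype difference under vehicle had no common sign, with -0.014, -0.054 and 0.050. PALBO gave 0.0086, -0.071 and -0.0067, and NOSCA gave -0.0058, -0.059 and 0.043 in WT and 0.033, 0.045 and -0.045 in APP cells. The same mean over the cytosolic ribosomal proteins was also lower under AG494 in each run. In WT cells it was 0.069, 0.020 and 0.054 under DMSO and -0.029, -0.041 and 0.012 under AG494. In APP cells it was -0.015, -0.076 and 0.069, and -0.076, -0.0995 and 0.0078. That of the mitochondrial ribosomal proteins was lower in each run but the third of WT cells, and that of the 23 proteasome subunits higher in each. In APP cells the called proteasome subunits under AG494 were PSMB9 (1.31), PSMB8 (0.88) and PSMB10 (0.28), where 4.75% of all genes were called. These calls held without 2, 2 and 1 of the 6 arrays, and the proteasome mean without these genes was not taken. Of the cytosolic ribosomal proteins RPL27A (-0.65) was called there, also without each array in turn.

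**Figure D4:**
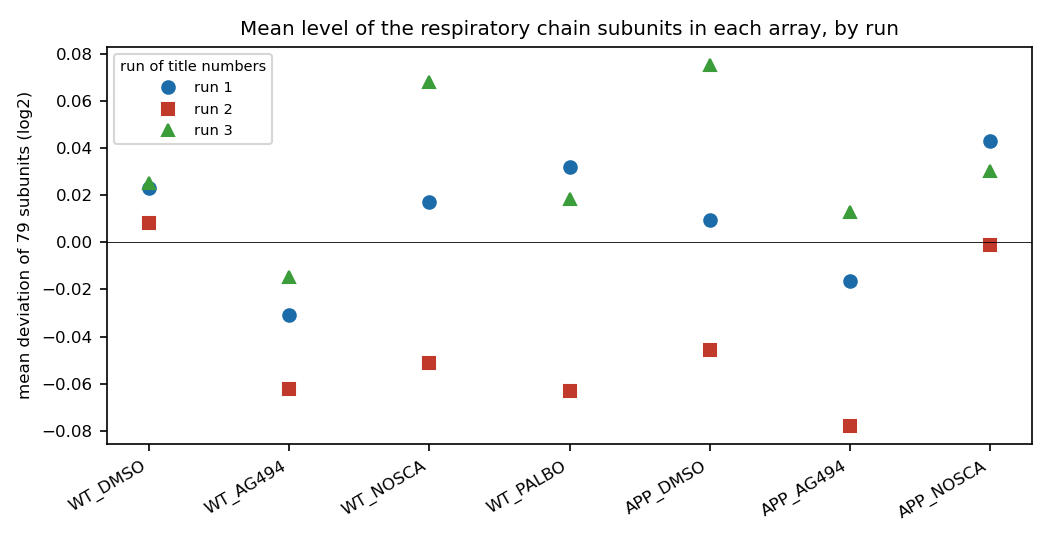
Mean deviation of the 79 subunits from the gene means over all arrays (vertical axis, log2) in each array, by group (horizontal axis) and run of sample numbers (symbols). The second run, red squares, is lowest in every group, and the AG494 arrays lie below the DMSO arrays of the same line and run.

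Single probe sets of other members gave calls that the brightest probe set did not. Over the 181 member probe sets, tested among 44988, 4 were called under PALBO, which are 3 measurements since those of NDUFB4 hold identical values, where 5.95% of all probe sets were called. Besides those of NDUFA6 and NDUFB4 this was a dimmer one of UQCR11, which was higher (0.33, adjusted p = 0.018 in limma), where its brightest gave 0.031. A dim one of UQCRB, singled out after its values were seen, was lower in APP_AG494 than in APP_DMSO (-0.38, adjusted p = 0.014), the 1 member probe set called there, where 3.82% of all were called. The brightest probe set of UQCRB gave -0.12. UQCR11 and UQCRB are small subunits of complex III. No member probe set was called between the lines under vehicle, under AG494 or NOSCA in WT cells, or under NOSCA in APP cells.

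Of 8 subunits or close relatives that the symbol rule leaves out, 1 was called between the lines under vehicle, where 9.25% of all genes were. COX4I2, the lung-type and oxygen-responsive isoform of subunit IV of cytochrome c oxidase, was at 6.88, 6.51 and 6.49 in WT_DMSO and at 6.18, 5.81 and 5.95 in APP_DMSO. The groups did not overlap, and the log2 fold change was -0.65 ± 0.12 (SE) with an adjusted p of 0.0016 in limma, a call that held without each of the 6 arrays. Its ubiquitous counterpart COX4I1 was between 13.02 and 13.08 in these 6 arrays, and CYCS, cytochrome c, between 12.76 and 12.79. With the block 3 of the 8 were lower, where 7.14% of all genes were. Among the 8, NDUFAB1 had group means from 9.78 ± 0.26 in APP_AG494 to 10.40 ± 0.20 in WT_DMSO (SD, n = 3). This span was wider than that of every member but COX6B2. COX4I2 was also 0.38 lower under PALBO in WT cells, with an adjusted p of 0.069, and of 0.036 with the block.

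Of 19 regulators of mitochondrial biogenesis, 1 was higher and 1 lower in APP_DMSO than in WT_DMSO. Of all 18132 genes 942 were called higher and 735, or 4.05%, lower. PPARGC1A, whose product PGC-1alpha coactivates respiratory genes, was at 5.22, 5.25 and 5.35 in WT_DMSO and at 6.65, 6.41 and 6.92 in APP_DMSO. No array of one line reached those of the other, and the log2 fold change was 1.39 ± 0.15 (SE) with an adjusted p of 4.1e-06 in limma, and from 1.26 to 1.51 without each array in turn. Of its other probe sets 1 gave 0.49 and was called, and the others gave 0.11 and 0.065 and were not. All of these probe sets, like that of COX4I2, had means below the median of every array. The WT_DMSO values of PPARGC1A lay between those of PTPRC and CD3E, and the APP_DMSO values of COX4I2 near those of CD14. No detection call was used here, so that a level above background was not shown for these groups and the fold changes may understate the differences.

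ESRRG, which encodes an estrogen-related receptor, was at 9.39, 8.69 and 8.66 in WT_DMSO and at 8.13, 7.80 and 8.12 in APP_DMSO. The groups did not overlap, and the first WT_DMSO array was the highest. A log2 fold change of -0.90 ± 0.26 had an adjusted p of 0.032 in limma, and its 6 other probe sets lay between -1.13 and -0.49. This call held only without WT_DMSO array 2 or 3, and without WT_DMSO array 1 the value was -0.66.

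AG494 in APP cells went with lower PPARGC1A, at 5.94, 5.77 and 5.99 against the vehicle values above, a log2 fold change of -0.76 with an adjusted p of 0.0055. In WT cells the difference was 0.059 with an adjusted p of 0.98. The interaction of -0.82 had an adjusted p of 0.20, and of 0.017 with the block. TWNK, the helicase of mitochondrial DNA replication, was lower under AG494 (-0.27) in APP cells (adjusted p = 0.020) and higher by 0.26 under PALBO in WT cells (adjusted p = 0.022), calls that held without 2 and 3 of the 6 arrays, respectively. Between the lines under AG494 PPARGC1A was higher by 0.57, and ESRRG (-1.32) and GABPA (-0.28), the DNA-binding subunit of GABP, were lower. The calls of PPARGC1A and GABPA there held without 2 and 1 of the 6 arrays, respectively. Under NOSCA PPARGC1A (0.89) was higher and ESRRG (-1.25) lower in the APP line, each past the threshold in limma also without any 1 array. NRF1 was not called in any comparison without the block, with its largest difference under PALBO (-0.41, adjusted p = 0.056, and 0.0047 with the block).

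**Figure D5:**
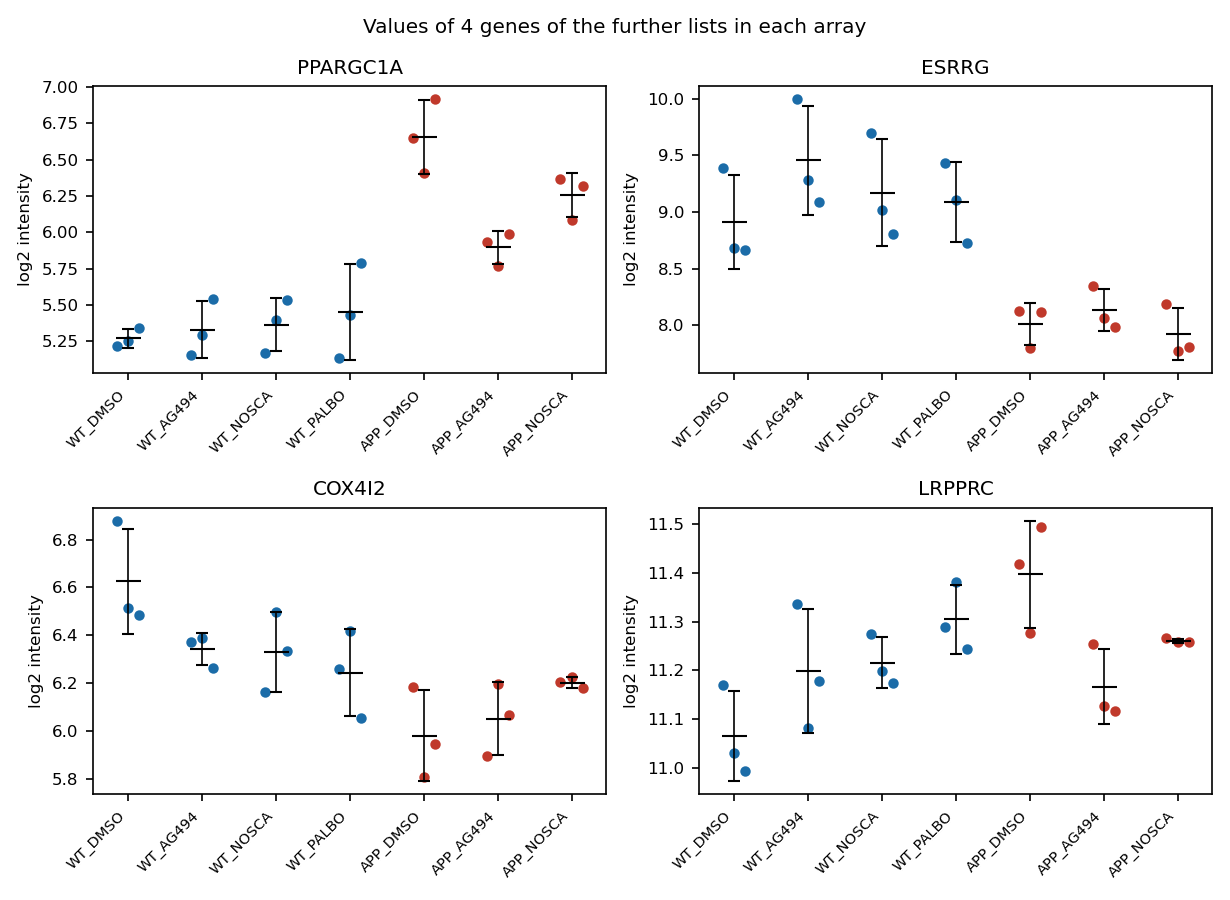
Log2 intensity (vertical axis) of PPARGC1A, ESRRG, COX4I2 and LRPPRC in each array, by group (horizontal axis; WT blue, APP red), with the mean and SD of 3 arrays. PPARGC1A lies higher and ESRRG lower in the APP groups, and COX4I2 has its highest mean in WT_DMSO; the vertical axes are cut and differ between panels.

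For the factors that build and feed the complexes, the calls are to be read against the 9.25% of all genes called between the lines under vehicle. In APP_DMSO against WT_DMSO, 0 of 18 assembly factors of complex I, 1 of 10 of complexes II and III, 1 of 22 of complex IV and 0 of 5 of complex V were called. The called ones were SDHAF2, which helps to attach FAD to SDHA (0.30, adjusted p = 0.022), and LRPPRC, which stabilises mitochondrial mRNAs (0.33, adjusted p = 0.0087), both higher in limma. The call of LRPPRC held without each array, that of SDHAF2 without 3 of the 6. Of 13 genes of coenzyme Q synthesis COQ6 was higher (0.28, adjusted p = 0.044), and of 15 genes of the citric acid cycle and pyruvate dehydrogenase OGDH was higher (0.22, adjusted p = 0.032), calls that held without 2 and 1 of the 6 arrays, respectively. With the block 3 genes of coenzyme Q synthesis and 3 of the citric acid cycle list were higher. The share of all genes called higher with the block is not given here, so that these counts have no reference. In APP_NOSCA against WT_NOSCA 0 genes of these 6 lists were called, and in APP_AG494 against WT_AG494 1 was, COQ10B (0.34, adjusted p = 0.014). Of the compounds against vehicle, none had a call in these lists in either line.

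Of 19 glycolytic genes 4 were lower and 0 higher in APP_DMSO than in WT_DMSO, where 735 of all genes, or 4.05%, were called lower. ALDOC (-1.46), PFKP (-1.04), the glucose transporter gene SLC2A1 (-0.69) and LDHA (-0.59), which makes lactate dehydrogenase A, had adjusted p-values in limma from 5.5e-06 to 0.028. With the block 9 were lower, where 7.14% of all genes were. Without WT_DMSO array 1 or 2 there were 2, and without the third 7. The third WT_DMSO array stood apart for ALDOC, at 9.36 where the others were at 11.00 and 10.89, and its call held only without that array. It also stood apart in the mean deviation of the list, taken as for the subunits. This was 0.39, 0.33 and -0.0105 in WT_DMSO and -0.12, -0.078 and -0.19 in APP_DMSO in runs 1, 2 and 3. In run 3 it was -0.12 in WT_AG494, -0.13 in WT_NOSCA and -0.092 in WT_PALBO. The median of the list was -0.16, where that of the subunits was -0.0020.

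The mitochondrial ribosome makes the subunits encoded in mitochondrial DNA. Of its 74 measured proteins MRPL1 (0.34), MRPL15 (0.28) and MRPL46 (0.26) were higher in APP_DMSO than in WT_DMSO and none was lower, with a median of 0.018 over the list. These calls held without 2, 4 and 1 of the 6 arrays. Of 68 cytosolic ribosomal proteins RPL27A was lower (-0.51), a call that held without 3 of the 6 arrays. Of 23 core and base subunits of the proteasome PSMB9 (2.78) and PSMB8 (2.00), subunits of the immunoproteasome, were higher, also without each array in turn. The medians of these lists were -0.042 and 0.029. The calls in the ribosomal and proteasome lists are to be read against all 18132 genes, of which 942 were called higher and 735, or 4.05%, lower.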

How the data were processed

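The values are log2 intensities of Affymetrix PrimeView arrays, which the authors deposited after RMA. Per the submitters' processing notes this was run in affy, and the version is not given in the sources used here. The deposited log2 values were used as they are. RMA sets the arrays to a common distribution and shrinks differences of dim probe sets. The arrays carry no counts, and their number limits the precision.

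Total RNA (25 ng) had been amplified before labelling, per the labels' protocols. The table held 49372 probe sets. Of these, 79 controls, 1832 probe sets with several symbols and 2473 without annotation were left out. There were 44988 with 1 symbol. Current symbols came from RefSeq through the Entrez ID, which was found for 44961. The probe set with the highest mean stood for its gene.

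All 21 arrays entered 1 limma fit (lmFit and eBayes, limma 3.58.1, R 4.3.3) with a coefficient per group (14 residual and 4.27 prior degrees of freedom). Two-sided p-values were adjusted (Benjamini-Hochberg) over the 18132 genes of each of 12 contrasts, at a threshold of 0.05. Called means past that threshold. The fit was tested on simulated data. Confidence intervals are at 95%. The same fit with the run of title numbers as a block was the paired alternative. Arrays of 1 run and different groups correlated in their deviations from the group means (63 pairs, 0.23 to 0.68), those of different runs did not (126 pairs, -0.53 to 0.089). The labels do not say what a run is.

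Members and gene lists were chosen with earlier results of these data known. The genes to name were the called members, at most 10 in each direction, or the 5 with the lowest p in a contrast with fewer than 5 calls. To these came the brightest and dimmest of each complex, the isoform sets, up to 5 called genes of each further list, and APP. Not all of them are given in every contrast. Calls left out include MRPS18A and RPS27L under PALBO, and PFKP, LDHA, SLC2A1 and ENO1 between the lines under AG494. The promoter letters searched, and 2 updates of symbols in the lists, were added after the values were seen. Other settings were the probe sets used, the removal of the dimmest 33.3% of genes, quantile normalization, centring of arrays, a trended and robust prior, array weights, a fit of the compared groups alone, a fold of 1.5, and each array left out.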

Additional observations from a re-analysis of the deposited data

How the results depend on the processing

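With the replicate block 1 member was called between the lines under vehicle (COX5A), 1 under AG494 in WT cells (NDUFB4), 4 under PALBO, 1 between the lines under AG494 (NDUFA9) and 1 between PALBO and NOSCA (NDUFA6). The block changed no other count of members by over 1.5 times. Under PALBO the 2 calls became 1 with array weights, 0 when only the compared groups were fitted and 0 at 1.5-fold. Between PALBO and NOSCA 1 member was called with the mean of all probe sets of a gene, without the dimmest 33.3% of genes, and with the trended and robust prior. Centring arrays on their medians moved the members' median to -0.060 between the lines under vehicle, 0.0081 under AG494 in APP cells, 0.084 for the genotype and AG494 interaction and 0.066 for that with NOSCA. The median of all genes moved by as much, to -0.036, 0.044, 0.069 and 0.042, respectively. Leaving out 1 array at a time gave 0 to 1 calls under PALBO and 1 call of COX6B2 each time, and 0 calls elsewhere, and moved the members' median from -0.019 to 0.028 between the lines under vehicle, from -0.066 to -0.0047 under AG494 in APP cells, from -0.032 to 0.032 under PALBO and from -0.036 to 0.037 between PALBO and NOSCA. Under NOSCA it ran from -0.029 to 0.022 in WT and from -0.021 to 0.032 in APP cells, and between the lines from -0.0057 to 0.034 under AG494 and from -0.0076 to 0.044 under NOSCA. It stayed negative under AG494 in WT cells. SDHD reversed in the genotype and AG494 interaction, to 0.028, with the mean of its probe sets. Of the values of named genes outside the left-out arrays, 877 kept their direction and side of the threshold, 60 lost and 9 gained the call. The causes were not tested.

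With 3 arrays a group a member's difference had a 95% interval that reached 0.16 to either side (median), so that smaller shifts could not be told from 0. The labels say neither what the runs were nor at which dose the compounds were given. Short subunit transcripts with near-identical pseudogenes may share probes.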

Other observations

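Probe sets that list a member beside another gene entered no comparison. There were 8 of them, and their group means spanned 0.076 to 0.41 log2 units. The largest span belonged to one shared by COX7A2 and TMEM30A, a flippase subunit gene, with group means from 10.66 in APP_DMSO to 11.08 in WT_PALBO, and a second one of that pair of genes ran from 9.06 in APP_AG494 to 9.40 in WT_PALBO. COX7A2's own probe set had group means within 0.054 of each other. The 2 probe sets that SDHA shares with pseudogenes spanned 0.20 and 0.29. The one shared by ATP5MF and its readthrough transcript spanned 0.076.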
